A study of Mus musculus with 11 samples.

Results

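The guide strands of the let-7 family, including miR-98, were followed in mouse embryonic stem (mES) cells with and without Trim71. The members are the rows of the miRNA table whose name starts with let-7 or is miR-98 and that are not the 3p arm of a hairpin. They are 10 of the 592 miRNAs of the table, namely mmu-let-7a-5p, mmu-let-7b-5p, mmu-let-7c-5p, mmu-let-7d-5p, mmu-let-7e-5p, mmu-let-7f-5p, mmu-let-7g-5p, mmu-let-7i-5p, mmu-let-7j and mmu-miR-98-5p, written below without the species prefix where possible. The mES cells were of male C57BL/6 origin, were kept in medium with FCS and LIF and were enriched magnetically for the stem cell antigen SSEA-1 before RNA was made. Both genotypes come from cells with a floxed exon 4 of Trim71 and the CreERT2 recombinase at the Rosa26 locus, and Trim-/- cells, in which the exon is deleted, had received 4-hydroxytamoxifen (4-OHT) for 2 days, at 500 nM per the labels, followed by at least 7 days of culture. The methods of the study give a lower dose and a shorter culture after it. Trimfl/fl cells are the conditional cells without the deletion, for which the methods of the study give the solvent DMSO as control. Days 1, 5 and 6 each gave 1 Trim-/- and 1 Trimfl/fl library of clone 1, days 3 and 4 each gave 1 of each genotype of clone E3, and day 2 a Trimfl/fl library of clone E3 alone. The day number serves here to match libraries across genotypes, and each genotype thus rests on 2 clones.

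Let-7 miRNAs are short RNAs that guide Argonaute proteins to mRNAs, which they repress mainly through their seed, bases 2 to 8 from the 5′ end. Their hairpin precursors are transcribed in mES cells but are held back from processing by Lin28, which binds the loop, so that mature let-7 accumulates mostly on differentiation. Trim71, also known as Lin41, is an RNA-binding protein of stem cells and itself a classical let-7 target, and the comparison asks whether the mature let-7 strands differ between mES cells with and without it.

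The mature sequences are shown because near identity of the strands bears on how reads can be assigned among them. They are taken from RefSeq (GRCm38.p6), in which all 10 members were found, are written 5′ to 3′, and have the seed in capitals.
let-7a-5p: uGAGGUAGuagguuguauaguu
let-7b-5p: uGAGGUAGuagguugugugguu
let-7c-5p: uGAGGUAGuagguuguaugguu
let-7d-5p: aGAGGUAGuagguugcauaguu
let-7e-5p: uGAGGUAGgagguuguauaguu
let-7f-5p: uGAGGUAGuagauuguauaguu
let-7g-5p: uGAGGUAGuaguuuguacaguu
let-7i-5p: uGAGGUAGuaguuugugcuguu
miR-98-5p: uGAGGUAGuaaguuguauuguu
let-7j: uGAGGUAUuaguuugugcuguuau

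The seed GAGGUAG was shared by 9 members, and let-7j had GAGGUAU. Of the 463 miRNAs of the table that matched a RefSeq name, none but the members carried either seed. With positions counted from 1 at the 5′ end, let-7c-5p differs from let-7a-5p by A19G alone, let-7e-5p by U9G alone and let-7f-5p by G12A alone. The other strands with the shared seed differ from let-7a-5p at 2 to 4 positions. Over its first 22 bases let-7j differs from let-7i-5p by G8U alone, and its level was 0.151% of that of let-7i-5p. Across the 9 libraries in which let-7i-5p was above the floor, let-7j made up between 0.106% and 0.178% of let-7i-5p.

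The 12 hairpins of the family lie at 8 places of GRCm38.p6. Mirlet7d (chr13:48536012-48536114), Mirlet7f-1 (chr13:48537829-48537917) and Mirlet7a-1 (chr13:48538179-48538272) lie together on the minus strand and overlap an exon of the non-coding gene 6720427I07Rik. Mirlet7c-2 (chr15:85706603-85706697) and Mirlet7b (chr15:85707319-85707403) overlap an exon of Lncppara, and Mirlet7f-2 (chrX:151912346-151912428) and Mir98 (chrX:151913214-151913321) lie in an intron of Huwe1. Mirlet7g (chr9:106178840-106178927) lies in an intron of Wdr82, and Mirlet7i (chr10:122985640-122985724) overlaps an exon of D630033A02Rik. The other hairpins belong to the clusters with miR-99, miR-100 and miR-125. Mirlet7e (chr17:17830352-17830444) lies in an intron of Spaca6 next to Mir125a. Mirlet7c-1 (chr16:77599657-77599750) lies in an intron of Mir99ahg next to Mir99a, and Mirlet7a-2 (chr9:41536716-41536811) in an intron of 3110039I08Rik. The mature let-7j matches chr3:140028281-140028304, where GENCODE M21 lists no other gene.

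The values are read counts that the authors normalised with DESeq2 and corrected for batch, with values under 1 raised to 1, the floor. Within each of 591 of the 592 miRNAs, the sum of the Trim-/- and the Trimfl/fl value was the same on every day to within 0.1%, wherever neither value was at the floor. The mean of both values over that pair is called the mean level here. This level is common to all days, day 6 included. Percents of it and log2 fold changes without day 6 are therefore not free of day 6, and how far day 6 moved the level was not tested. The floor hides values that would have been lower, and these were recovered by subtracting the partner of the pair from the sum. Each day therefore gives 1 difference per miRNA, the 2 groups mirror each other around the mean level, and a member that was higher in Trim-/- on all days cannot overlap between the groups. For each miRNA the lone Trimfl/fl value of day 2 was the average of the 5 others as they were before flooring, and it adds no measurement of its own. Labels do not state that days are independent cultures, so p-values measure the spread between these pairs.

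How many reads stand behind each library is unknown. The summed values lay between 3751519 and 5551715 in Trim-/- and between 2742673 and 4332525 in Trimfl/fl libraries. Of these sums, the miR-290 to miR-295 cluster, which is characteristic of mES cells, made up at least 1621264 in each library. Marker miRNAs of other cell types were present as well. Summed over 12 fibroblast markers, of which miR-21a-5p is the most abundant, values ranged from 278953 to 859134 in Trim-/- and from 270749 to 413937 in 4 Trimfl/fl libraries. The sum was 38196 in the Trimfl/fl library of day 5, where miR-21a-5p was at the floor. The 8 neural markers summed to between 5927 and 9249 in Trim-/- and between 3393 and 6715 in Trimfl/fl, and the 5 blood markers to between 604 and 2189 and between 2030 and 3659. Trim71 mRNA is not part of a miRNA table, so that its deletion was not checked here.

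Members of the family differed in level by 3 orders of magnitude. The mean levels were 12267 for let-7g-5p, 9800 for let-7f-5p and 5971 for let-7i-5p, and these strands made up 83.4% of the sum over the members. They were followed by let-7a-5p at 2809. Then came let-7d-5p at 780, let-7c-5p at 714, let-7e-5p at 650 and miR-98-5p at 516, and at the end let-7b-5p at 98.4 and let-7j at 8.99. From let-7g-5p down to let-7d-5p, each strand exceeded the next in 9 of 10 libraries and equalled it in the floored Trimfl/fl library of day 6. The same held for miR-98-5p over let-7b-5p and for let-7b-5p over let-7j. Since each strand has the same mean level on all days in these values, the libraries do not repeat the order independently. Neighbours in the middle were not separated beyond their spread. There let-7d-5p was above let-7c-5p in 7 of 10 libraries, let-7c-5p above let-7e-5p in 6 and let-7e-5p above miR-98-5p in 7. Among all 592 miRNAs, let-7g-5p ranked at place 35 by level and let-7j at place 579.

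**Figure D1:**
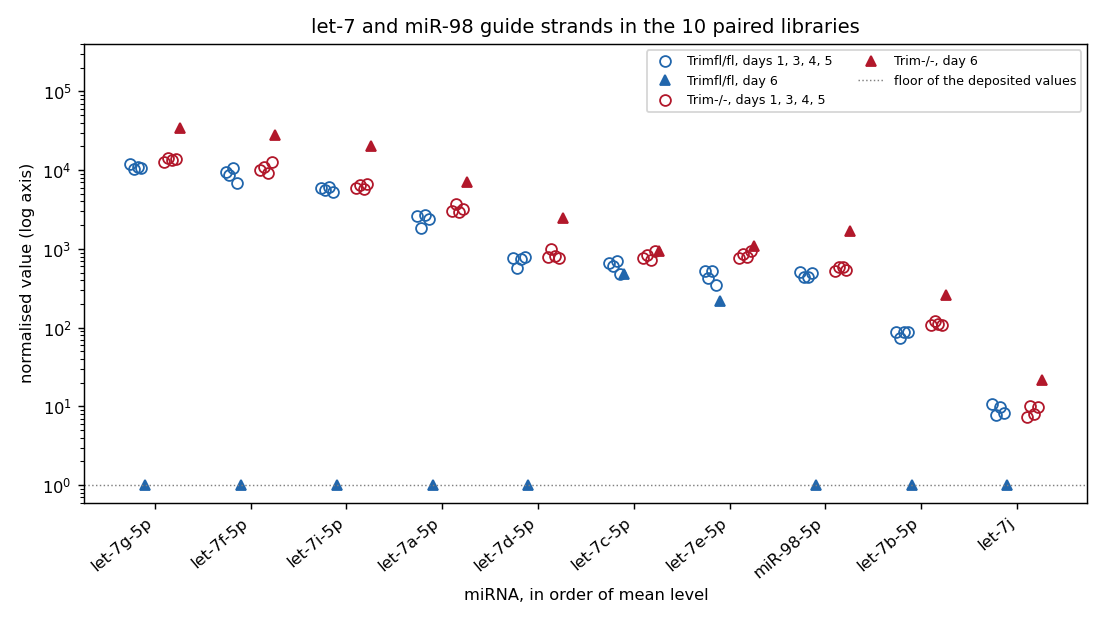
Normalised value (log axis) of each guide strand in the 10 paired libraries, ordered by mean level. Blue symbols stand for Trimfl/fl and red symbols for Trim-/- libraries, triangles for day 6, circles for the other days, and the dotted line for the floor of 1; in 8 of 10 strands the day 6 Trimfl/fl value is on that line, while let-7c-5p and let-7e-5p stay above it.

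In Trim-/- cells the fitted mean of 9 members was above that in Trimfl/fl cells, and so was that of let-7j, which stayed in the table only through its Trim-/- mean. For 8 of the 10 most of the fitted difference came from the pair of day 6. In such bulk RNA, fewer cells with a miRNA and less of it per cell cannot be told apart. The study called a miRNA changed at a fold above 1.5 with a p below 0.05, which is taken here as unadjusted. A single member, let-7e-5p, met these thresholds. These thresholds were passed upwards by 0.845% and downwards by 4.56% of all 592 miRNAs, so that 1 of 10 members was past them upwards and 0 of 10 downwards. With Benjamini-Hochberg adjustment over all 592 miRNAs, 0 members and 0 other miRNAs had an adjusted p under 0.05 in limma, while 32 of the 592 miRNAs and 1 member had an unadjusted p under 0.05. The median log2 fold change was 2.19 over the members and 0.03 over all miRNAs. Without the pair of day 6 it was 0.29 over the members, with 9 of 10 above 0, and 0.03 over all. In those 4 pairs 1 of 10 members was past the thresholds upwards and 0 downwards, against 0.676% and 2.53% of all miRNAs.

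The strand mmu-let-7e-5p was measured at 775, 870, 779, 949 and 1083 in Trim-/- libraries of days 1, 3, 4, 5 and 6. In the Trimfl/fl libraries of the same days it was at 525, 430, 522, 352 and 218. Every Trim-/- value lay above every Trimfl/fl value, which at constant sums follows from being higher on all days and held for 5.24% of all miRNAs. No value was at the floor. The group means were 891 ± 129 (SD, n = 5) and 409 ± 129 (SD, n = 5), a log2 fold change of 1.18 (standard error 0.34, limma adjusted p = 0.607). Day 6 had its largest same-day difference, 133% of the mean level, and day 1 its smallest, 38.5%. Without day 6 the log2 fold change was 0.90 (standard error 0.32, limma adjusted p = 0.777), again past the thresholds. Exchanging the genotypes within pairs in an exact permutation test gave p = 0.0625 two-sided, the smallest that 5 pairs allow, and without day 6 p = 0.125, the smallest for 4 pairs. The same permutation p-values were reached by let-7a-5p, let-7b-5p, let-7c-5p, let-7g-5p and miR-98-5p, which were also higher on all 5 days. The strand let-7e-5p was the only member that was higher in Trim-/- on all 5 days also when libraries were divided by their totals, with same-day log2 differences from 0.36 to 2.10. With both changes together, day 6 left out and libraries divided by totals, the log2 fold change was 0.61 and no longer past the thresholds. It was still above the fold threshold, but the unadjusted limma p was 0.136. In clone E3 alone, days 3 and 4, the log2 fold change was 0.80 (standard error 0.64) and also not past the thresholds. There too the fold was above its threshold, and the unadjusted limma p was 0.243.

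The strand mmu-let-7c-5p, which is encoded at 2 loci, was the other member without a floored value. Its Trim-/- values were 772, 827, 724, 954 and 951 on days 1, 3, 4, 5 and 6, and its Trimfl/fl values 655, 601, 703, 473 and 476. The groups did not overlap, which again follows from being higher on all days and held for 5.24% of all miRNAs. The lowest Trim-/- value, 724, and the highest Trimfl/fl value, 703, were the pair of day 4, which differed by 2.93% of the mean level. Days 5 and 6 gave almost the same difference, 67.4% and 66.6%. The log2 fold change was 0.55 (standard error 0.27, limma adjusted p = 0.607) and 0.44 without day 6, below the fold threshold in both cases.

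The most abundant strand, mmu-let-7g-5p, was at 12694, 14188, 13512, 13847 and 34200 in Trim-/- libraries on days 1, 3, 4, 5 and 6. Its Trimfl/fl values were 11841, 10347, 11022, 10688 and 1. On days 1 to 5 the Trim-/- library was higher by between 6.95% and 31.3% of the mean level, and on day 6 by 358% with the Trimfl/fl value before the floor. Over 5 days the log2 fold change was 3.06, with a standard error of 2.25, and over the 4 other days it was 0.31 with a standard error of 0.28. Neither passed the thresholds of the study. Before the floor, the Trimfl/fl value of day 6 was -9666, which is no possible read count, so that the size of the log2 difference on day 6 is set by the floor.

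For mmu-let-7a-5p the Trim-/- values were 3006, 3771, 2914, 3230 and 7013 on the same days, and the Trimfl/fl values 2612, 1848, 2704, 2388 and 1. The Trim-/- library was higher on each of the 5 days, with differences of 14.0%, 68.4%, 7.49%, 30.0% and 299% of the mean level, the last with a Trimfl/fl value of -1395 before the floor. It thus stood highest relative to its level on day 3 among the days other than 6. The log2 fold change was 2.71 with day 6 and 0.44 without it. This strand is made from 2 hairpins, one on chromosome 13 and one on chromosome 9.

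The abundant strands let-7f-5p and let-7i-5p were not higher in Trim-/- on every day. For mmu-let-7f-5p the Trim-/- values were 10065, 10899, 9070, 12702 and 28165 and the Trimfl/fl values 9535, 8701, 10530, 6898 and 1. It was thus lower in Trim-/- on day 4, by 14.9% of the mean level, and higher on day 5 by 59.2%. Values of let-7i-5p were 5955, 6410, 5819, 6735 and 20312 in Trim-/- and 5986, 5531, 6122, 5206 and 1 in Trimfl/fl libraries. It was close to equal on days 1 and 4, with differences of -0.510% and -5.08%, and had the largest difference of all members on day 6, at 480% with a Trimfl/fl value of -8371 before the floor. Without day 6 the log2 fold changes were 0.27 for let-7f-5p and 0.13 for let-7i-5p, and neither was past the thresholds.

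Of the less abundant strands, miR-98-5p and let-7b-5p were higher in Trim-/- on all 5 days. The values of miR-98-5p were 525, 587, 591, 542 and 1670 in Trim-/- and 507, 446, 442, 491 and 1 in Trimfl/fl. Those of mmu-let-7b-5p were 108, 123, 110, 108 and 259 in Trim-/- and 88.8, 73.5, 87.0, 88.6 and 1 in Trimfl/fl. Outside day 6 these differences were between 3.48% and 28.7% of the mean level for miR-98-5p and between 19.4% and 50.6% for let-7b-5p. Without day 6 the log2 fold changes were 0.25 and 0.41.

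Both remaining members crossed between the genotypes. The values of mmu-let-7d-5p were 789, 988, 815, 770 and 2504 in Trim-/- and 771, 572, 745, 790 and 1 in Trimfl/fl, so that it was slightly lower in Trim-/- on day 5. The values of let-7j were 7.33, 10.2, 8.12, 9.75 and 21.5 in Trim-/- and 10.7, 7.82, 9.87, 8.24 and 1 in Trimfl/fl. It was lower in Trim-/- on days 1 and 4, and its log2 fold change of 0.66 turned to -0.045 without day 6. A miRNA needed a mean of 10 in at least one genotype to stay in the table. The means of let-7j were 11.4 in Trim-/- and 7.52 in Trimfl/fl cells, and 8.84 and 9.15 without day 6, so that it passed only through its high Trim-/- value of day 6. A large day 6 difference was thus needed for let-7j to be in the table. That difference, and its part in the fit, are no independent support for a change.

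Taking the 10 members by day, the median difference, with values before the floor, was 342% of the mean level on day 6. It was far smaller in the other pairs, at 6.18% (day 1), 31.5% (day 3), 8.23% (day 4) and 25.7% (day 5). Over all 592 miRNAs the median difference was between -1.35% and 1.5% on each day. All 10 members were higher in Trim-/- on days 3 and 6, while for day 1 the number was 8, for day 4 it was 7 and for day 5 it was 9. For let-7j the day 6 difference was needed to pass the filter and is no independent support. Across the 5 days 6 of 10 members were higher, namely let-7a-5p, let-7b-5p, let-7c-5p, let-7e-5p, let-7g-5p and miR-98-5p, against 5.24% of all miRNAs. Leaving out day 6 the same 6 were higher on each of the 4 other days, against 7.94% of all miRNAs. Members share sequence and loci, and their counts are not independent observations.

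**Figure D2:**
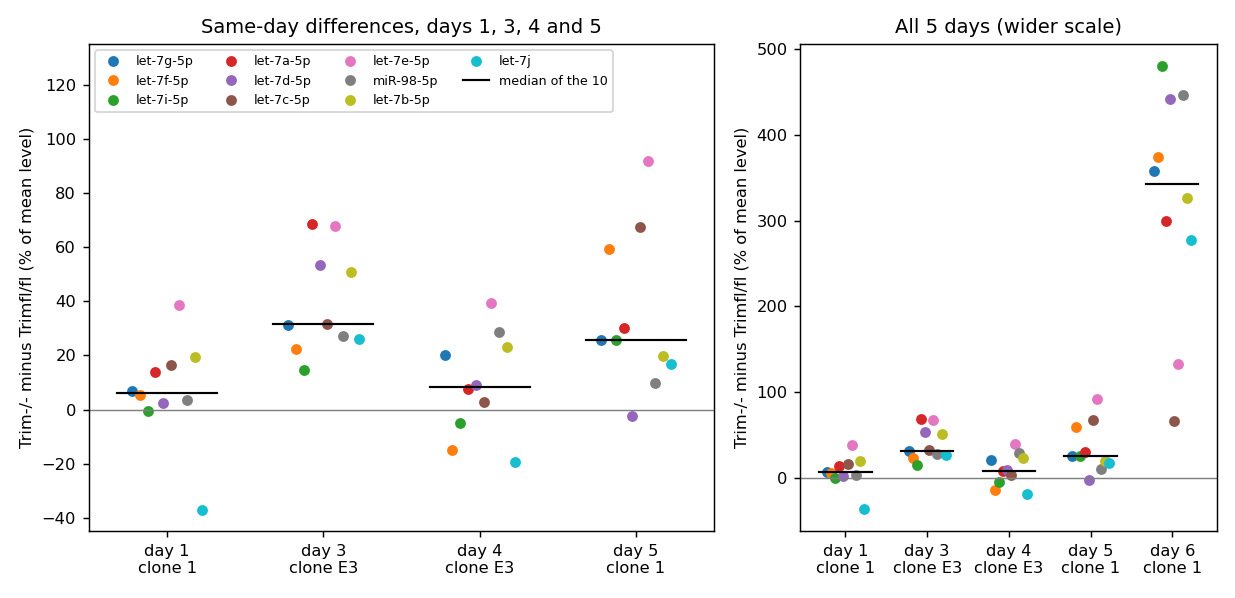
Same-day difference of each guide strand, Trim-/- minus Trimfl/fl with values before the floor, as percent of its mean level, for days 1, 3, 4 and 5 on the left and for all 5 days on a wider scale on the right. Points are single strands, 1 pair of libraries per day, and black lines are the medians of the 10 strands, which lie between 6.18% and 31.5% on the first 4 of these days and at 342% on day 6.

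The differences on days 1 and 5 depended on how libraries were put on a common scale. Divided by the library totals, the median log2 difference of the members was -0.12, 0.33, 0.33, -0.64 and 9.84 for days 1, 3, 4, 5 and 6. On the deposited scale these medians were 0.09, 0.46, 0.12, 0.37 and 9.999. The size of the day 6 median is set by the floor and the pseudocount, and it was 7.55 with a pseudocount of 10 and 10.86 with 0.1. After the division the median of all miRNAs stood at -0.22 on day 1 and at -1.002 on day 5, a shift of -0.20 and of -0.997, and 3 members were then higher in Trim-/- on day 1 and 1, let-7e-5p, on day 5. The sign of the members' median thus turned on days 1 and 5, while its distance from the median of all miRNAs is nearly fixed, since the division moves all miRNAs of a library by 1 factor. As a share of the library sum, the members were at 0.801% in Trim-/- and 0.866% in Trimfl/fl on day 1, at 0.917% and 0.739% on day 3, at 0.915% and 0.759% on day 4, and at 0.718% and 0.998% on day 5. On day 6 they were at 2.21% and 0.0186%, where the Trimfl/fl share counts 8 members at the floor whose values before it were below 0 (-9666 for let-7g-5p), and is no measure of how much let-7 that library held. The Trim-/- share of day 6 rests on values tied to these by the constant sums, and is no direct measure of that library either. When day 6 was left out and libraries were divided by totals, 5 of 10 members were higher in Trim-/-, and the median log2 fold change was 0.0013 over the members and -0.26 over all miRNAs.

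**Figure D3:**
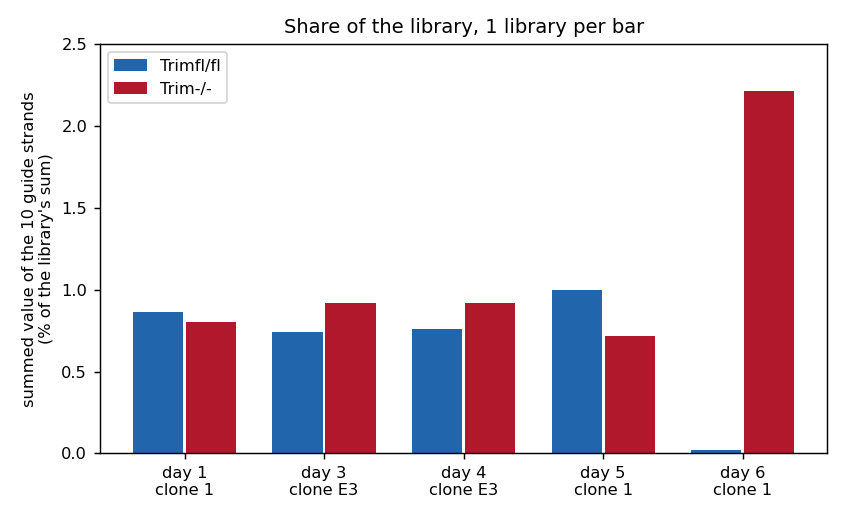
Summed value of the 10 guide strands as percent of the library's sum, on an axis from 0, with 1 library per bar, blue for Trimfl/fl and red for Trim-/-. The Trim-/- bar is the higher one on days 3, 4 and 6 and the lower one on days 1 and 5, and the day 6 bars are at 0.0186% and 2.21%, the former with 8 strands at the floor.

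On day 5, on which the division by totals shifted the median most, miR-21a-5p, a miRNA that is abundant in fibroblasts and other differentiated cells, was at 796335 in the Trim-/- library and at the floor in the Trimfl/fl library. Of the 12 fibroblast markers 8 were higher in Trim-/- on that day and 4 lower, the latter being miR-145a-5p (-9.09% of the mean level), miR-199a-3p (-32.7%), miR-199a-5p (-26.7%) and miR-199b-3p (-22.8%). Without miR-21a-5p the markers summed to 62799 in Trim-/- and 38195 in Trimfl/fl on day 5. Over 5 days, 0 of the 12 fibroblast markers were past the thresholds in either direction, and 9 had a higher fitted mean in Trim-/-. On day 6 their sums were 386014 and 306855, those of the neural markers 7464 and 5178 and those of the blood markers 1732 and 2488, and none of these markers was at the floor in the Trimfl/fl library. Of the neural markers 7 of 8 had a higher fitted mean in Trim-/- and 0 were past the thresholds, and of the blood markers 0 of 5 were higher and 1 was past the thresholds downwards. The part of these markers in the let-7 values of days 1, 3, 4 and 5 was not tested. The miR-290 to miR-295 cluster also differed on day 5, with sums of 3070511 in Trim-/- and 1621264 in Trimfl/fl, within which miR-292-5p was at 1400000 and 371018. On day 6 the cluster summed to 2515832 in Trim-/- and 2172692 in Trimfl/fl, and the miR-302 and miR-367 cluster to 14421 and 14066. On the other days the miR-302 and miR-367 sums were lower in Trim-/-, at 8321 to 13508 against 15001 to 20166 in Trimfl/fl. Of these 9 strands 0 had a higher fitted mean in Trim-/- and 0 were past the thresholds, with a median log2 fold change of -0.64, and -0.80 without day 6.

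On day 6 the deposited values of both libraries of the pair stood away from those of the other libraries of their genotype. Because the same-day sums are constant, this is the same difference seen from both sides. Which library departed cannot be told from these values. The Trim-/- value of day 6 was between 2.17 and 3.26 times the mean of the other Trim-/- libraries for 8 members. For let-7c-5p this ratio was 1.16 and for let-7e-5p it was 1.28. Among the 4 other Trim-/- libraries the coefficient of variation lay between 4.72% for let-7g-5p and 15.2% for let-7j. In the Trimfl/fl library of day 6, 8 of 10 members were at the floor, as were 24 of all 592 miRNAs, or 4.05%. Of these 8, let-7j is in the table only through its high Trim-/- value of day 6. Its low Trimfl/fl partner was thereby favoured by the filter and is not to be read against the share of all miRNAs. The members had no value at the floor in any other paired library.

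A day 6 difference over 200% of the mean level means a Trimfl/fl value below 0 before the floor, so that its count is no second observation beside the values at the floor. Such a difference was reached by 23 of the 592 miRNAs, or 3.89%. Of these, 8 were members and 8 were 3p arms of the same family. Among them let-7j, let-7f-1-3p, let-7g-3p and let-7i-3p were in the table only through their Trim-/- mean, to which day 6 contributes, so that the share of the family is not to be read against that of all miRNAs for these 4. Among all miRNAs ordered by the day 6 difference, let-7i-5p was at place 2 and miR-98-5p at place 3, whereas let-7e-5p was at place 40 and let-7c-5p at place 85. On day 5, 19 miRNAs exceeded 200% and 0 members were among them.

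**Figure D4:**
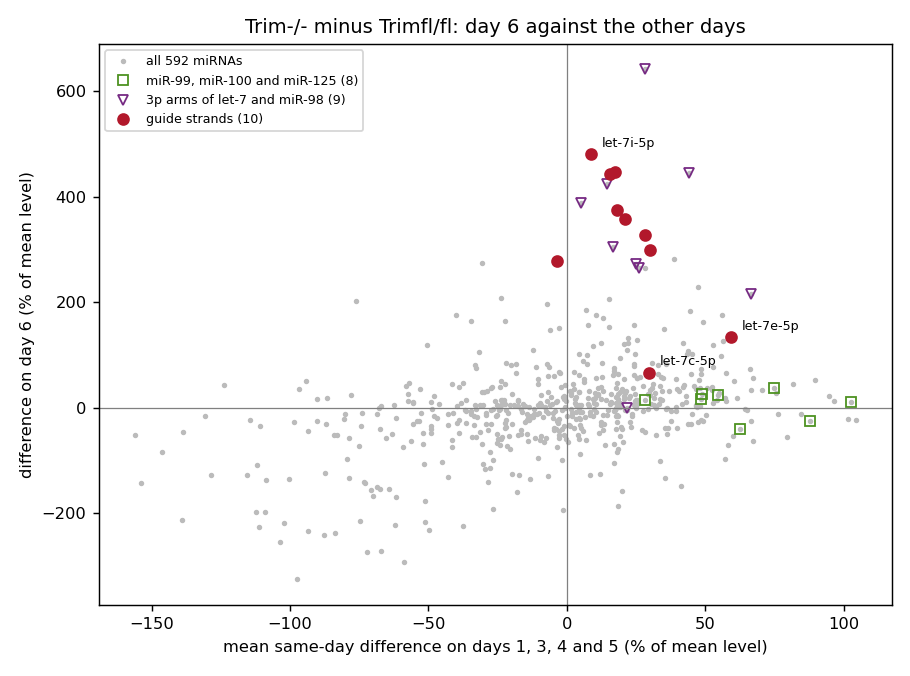
Difference on day 6 against the mean difference on days 1, 3, 4 and 5, both as percent of the mean level with values before the floor, for all 592 miRNAs (grey), the 10 guide strands (red), their 3p arms (purple) and the cluster partners (green). Of the guide strands 8 lie above 200% on the vertical axis, let-7e-5p is at 133% and let-7c-5p at 66.6%, and the cluster partners lie between -40.0% and 38.1%.

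Of the 9 listed 3p arms, 8 were also higher in Trim-/- on day 6. Of these, let-7f-1-3p, let-7g-3p and let-7i-3p passed the filter only through their Trim-/- mean, and let-7g-3p and let-7i-3p would be under it without day 6. The 8 differed by between 216% and 641% of their mean level and were at the floor in the Trimfl/fl library, and let-7d-3p differed by -0.140%, while its 5p arm differed by 442%. These arms are of low level, between 8.65 and 160.0, and 0 of 9 were past the thresholds in either direction. The arm let-7e-3p differed by 304% on day 6, where let-7e-5p differed by 133%.

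The cluster partners miR-99, miR-100 and miR-125, which share primary transcripts with let-7e, let-7c-1 and let-7a-2, did not follow the day 6 pattern. Their 8 mature strands differed by between -40.0% and 38.1% of the mean level on that day, 0 were at the floor in the Trimfl/fl library, and 0 of 8 were past the thresholds over 5 days. Their median log2 fold change was 1.27, and 1.58 without day 6, but 0.49 without day 5. In the Trimfl/fl library of day 5, 3 of the 8 were at the floor, namely miR-100-5p, miR-99b-3p and miR-125b-1-3p. Both members with day 6 values above the floor, let-7c-5p and let-7e-5p, have a hairpin in such a cluster, and so has let-7a-5p, which was at the floor.

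Outside the family, the miRNAs nearest to the members' median pattern over the 5 days were miR-1981-5p, miR-126b-5p, miR-24-2-5p, miR-497b and miR-3074-5p. They were chosen as the 5 with the smallest mean absolute distance to the members' median differences among 318 miRNAs with a mean level of at least 100. Their distances were between 49.0 and 67.0 percentage points, where those of the members ran from 5.69 for let-7g-5p to 75.0 for let-7e-5p. The nearest, miR-1981-5p, differed by 171% on day 6 and by between -6.27% and 52.9% on the other days, a log2 fold change of 0.89 (standard error 0.62). Of the 5 none was past the thresholds.

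The fitted changes of 8 members widened with day 6 in both size and error. With the pair of day 6 the standard error of their log2 fold changes was between 0.63 for let-7j and 2.25 for let-7g-5p, and without it between 0.28 and 0.33. Without day 6 the 95% interval of the log2 fold change reached from -0.40 to 1.02 for let-7g-5p and from -0.60 to 0.85 for let-7i-5p. The interval of let-7e-5p was from 0.34 to 2.02 with day 6 and from 0.10 to 1.70 without it.

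**Figure D5:**
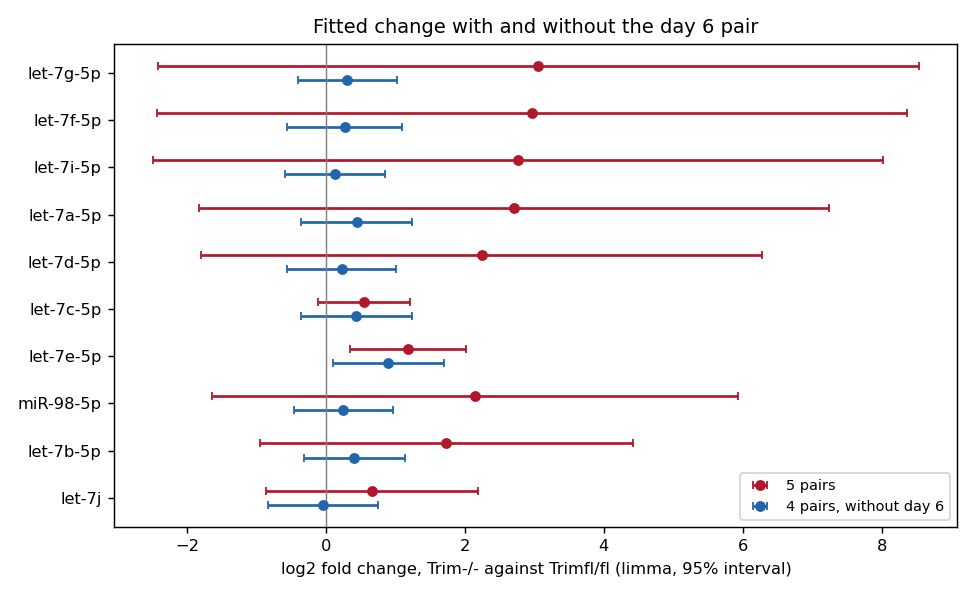
Log2 fold change, Trim-/- against Trimfl/fl, of each guide strand with its 95% interval from limma, red for all 5 pairs and blue for the 4 pairs without day 6. Intervals include 0 for all strands but let-7e-5p, whose interval runs from 0.34 to 2.02 with and from 0.10 to 1.70 without day 6.

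The 2 clones were compared by the interaction of genotype and clone. Averaged over days 1, 5 and 6 of clone 1, the log2 difference was 4.85 for let-7g-5p, 1.43 for let-7e-5p and 0.75 for let-7c-5p. In clone E3, averaged over days 3 and 4, it was 0.37, 0.80 and 0.25. The interaction had an unadjusted p under 0.05 for 0 of 10 members, against 5.57% of all miRNAs, and the limma adjusted p of the members lay between 0.674 and 0.737. Because day 6 belongs to clone 1, this difference and day 6 cannot be told apart with the pair included. Without it, clone E3 minus clone 1 was between -0.42 for let-7f-5p and 0.46 for let-7d-5p. All 10 members had a mean difference above 0 in clone E3, which has no library of day 6, with a median of 0.39, but 0 of them were past the thresholds there in either direction, against 1.35% of all miRNAs upwards and 4.73% downwards.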

How the data were processed

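Small RNA libraries of Trim-/- and Trimfl/fl mES cells were sequenced by the authors. The methods name the NEBNext small RNA kit with short reads, whereas the labels give an mRNA kit and a paired-end run. Reads were processed with CASAVA 1.8 and FLICKR, aligned with Bowtie2 2.2.1 to miRBase v20, and analysed in Partek 6.6. The authors normalised with DESeq2, corrected for batch, raised values under 1 to 1 and dropped any miRNA that did not average 10 in at least one genotype. The deposited values are therefore a signal on the scale of normalised read counts, without raw counts, and no count model was fitted. Near-identical let-7 strands can exchange reads in such a count.

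Genotypes were compared in the 10 libraries of 5 same-day pairs with limma 3.58.1 in R 4.3.3 (lmFit, eBayes, no trend) on log2(value + 1) with day as a factor, over all 592 miRNAs with Benjamini-Hochberg adjustment, and with exact permutation within days for single members. Fold changes are on that scale, and the pseudocount of 1 understates changes of low miRNAs. The pairing is that of the labels, in which libraries of a pair share day and clone. Within a pair, deviations from the genotype means had correlations from -0.65 to -0.41 across miRNAs on the log2 scale, a sign that the constant sums impose. No table column belonged to another sample. The fit was tested on simulated data. All members were named, with the 5 nearest miRNAs by the stated rule. Members and lists were chosen with earlier results of these data known. Alternatives were other blocks, all 11 libraries, each pair or clone left out, 3 scalings, pseudocounts of 0.1 and 10, a minimum mean of 100, untransformed values, values before the floor and limma with trend. Leaving out day 6 and dividing by totals together, and the cluster partners without day 5, were added after seeing the data. Motifs of the hairpins are not reported here. Sequences came from RefSeq and genes from GENCODE M21, and plots were drawn with matplotlib 3.10.9 from tables made with pandas 2.3.3.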

Additional observations from a re-analysis of the deposited data

Results flagged for a closer look

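For each member, the 5 libraries of each genotype were checked for a value whose gap to the nearest other exceeded the share of the range given by the critical value of Dixon's test, 0.71 for 5 values. Chance flags about 1 in 20 groups, and 13 of the 20 groups had such a value, every one of them from day 6. The flag of let-7j in Trim-/- is not to be read against chance, since this strand is in the table only through that high value. In Trim-/- libraries the day 6 value stood above the others for let-7a-5p (0.791 of the range), let-7b-5p (0.899), let-7d-5p (0.875), let-7f-5p (0.810), let-7g-5p (0.931), let-7i-5p (0.937), let-7j (0.799) and miR-98-5p (0.943). In Trimfl/fl libraries the day 6 value stood below the others for let-7b-5p (0.825), let-7d-5p (0.724), let-7g-5p (0.874), let-7i-5p (0.850) and miR-98-5p (0.871). Because the same-day sums are constant, a high Trim-/- and a low Trimfl/fl value of day 6 are 1 measurement seen from both sides, and members of the family are not independent of each other. For let-7c-5p and let-7e-5p no library of either genotype was flagged.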

How the results depend on the processing

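The count of members past the thresholds upwards was 1, let-7e-5p, under 18 of the 20 alternatives for it, among them the fit with no replicate block, and 0 members in clone E3 alone (log2 fold change of let-7e-5p 0.80) and 0 with day 6 left out and libraries divided by totals (0.61). No member was past them downwards. In both settings with 0 members upwards, let-7e-5p was above the fold threshold and its unadjusted p was not below 0.05. Exact permutation gave let-7e-5p p = 0.0625 at a log2 fold change of 1.18, the smallest p that 5 pairs allow. The other members that were higher on all 5 days had the same permutation p. Its limma adjusted p lay between 0.0187, with all 11 libraries and no block, and 0.990, in clone E3 alone. Over all miRNAs, the counts past the thresholds, 5 higher and 27 lower in the paired fit, were 42 and 59 with no replicate block, 36 and 57 with clone as block and 45 and 71 with all 11 libraries, and the limma adjusted p was under 0.05 for 9 miRNAs with no block and for 36, let-7e-5p among them, with all 11 libraries. They were 14 and 45 in clone 1 alone, 8 higher in clone E3 alone, 2 and 48 after dividing by totals, 2 and 43 by totals without miR-290 to miR-295, 8 higher with a pseudocount of 10, 13 and 44 untransformed and 11 and 44 before the floor. With the filter on a mean of at least 100, which left 329 miRNAs to test, 10 were lower. Leaving out 1 pair in turn gave 4 to 23 higher and 11 to 44 lower miRNAs. The members' median log2 fold change was 0.29 without day 6 and from 2.59 to 2.73 without any other pair. It was 1.02 untransformed, 1.37 before the floor, 1.70 and 2.36 with pseudocounts of 10 and 0.1 and 0.0013 with day 6 left out and totals. The sign of single members was reversed for let-7j without day 6 (-0.045, and at most 0.95 without any other pair), and, with day 6 left out and totals, for let-7d-5p (-0.056), let-7f-5p (-0.018), let-7i-5p (-0.16), let-7j (-0.30) and miR-98-5p (-0.034). With day 6 left out and totals the median over all miRNAs was -0.26, and among the reversed members only let-7j lay below it. The causes were not tested. The batch correction removed day means before deposit, so that fits without the block count more degrees of freedom than the 5 pairs give. Settings without day 6 still keep the mean level common to all days. Read depth is unknown, and let-7j is near the filter on low values.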
